A study of Mus musculus with 2 samples.

Results

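Transcripts of 7 genes best known from bone, tendon and mineralized matrix were followed in single cells of healed mouse wounds. The genes are *Ibsp*, *Alpl*, *Pth1r*, *Tnmd*, *Scx*, *Mgp* and *Enpp1*, 7 of all genes counted. They were chosen by their counts in these same cells, between the 2 libraries and by detection of *Egfl6* and *Rspo3* in *SM22-SmoM2* fibroblasts. Their ratios in those contrasts are therefore a description of the libraries, and no test was run.

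The cells were Tomato+ cells sorted from the dermis of small wounds, which heal with a scar. The control library came from mice with SM22rtTA, tetO-Cre and R26-Tomato, and the *SM22-SmoM2* library from mice with SM22rtTA, tetO-Cre and R26-SmoM2/Tomato. Mice of both groups were 4 to 5 weeks old and carried the SM22 promoter-driven rtTA, the Cre and the Tomato reporter. They were given doxycycline (20 g/kg in chow) from day 1 after wounding until the wounds were collected, 3 days after reepithelialization. SmoM2, a constitutively active form of Smoothened that switches on the Hedgehog pathway without ligand, was the one difference by design. Both genotypes were driven by the same promoter, that of a smooth muscle and myofibroblast gene. The label depends on doxycycline, so it marks cells in which that promoter was active at some time while doxycycline was given. Each group was 1 library from wounds pooled over several mice, so condition and library cannot be told apart.

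Bone forms when osteoblasts lay down a collagen matrix and then mineralize it. *Ibsp* (bone sialoprotein) encodes an acidic matrix protein of mineralizing tissue, and *Alpl* the tissue-nonspecific alkaline phosphatase, which splits the mineral inhibitor pyrophosphate and whose activity is also used to stain the dermal papilla of hair follicles. *Enpp1* makes pyrophosphate, and *Mgp* (matrix Gla protein) keeps soft tissue from calcifying. *Pth1r* is the receptor for parathyroid hormone and for the related protein encoded by *Pthlh*. *Tnmd* (tenomodulin) is a membrane glycoprotein of mature tenocytes, and *Scx* (scleraxis) the transcription factor of tendon progenitors. *Egfl6* encodes a secreted matrix protein with EGF repeats, and *Rspo3* a secreted amplifier of Wnt signaling.

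After cells with more than 10% mitochondrial UMIs were left out, 2856 control and 1792 *SM22-SmoM2* cells remained, with medians of 8607.5 and 8837.5 UMIs (unique molecular identifiers, 1 per captured transcript). Fibroblasts were 1089 control cells (14096046 UMIs, median 12471) and 1098 *SM22-SmoM2* cells (12478753 UMIs, median 10947.5). All 7 fibroblast markers were detected in both, with summed levels of 37845 and 19916.5 counts per 1000000 UMIs (CPM). One cluster met the criteria of no lineage and stayed unnamed, and its 53 cells (median 4885 UMIs) were all *SM22-SmoM2* cells. It was counted with the fibroblasts because its profile was most like that of a fibroblast cluster (Pearson r = 0.91 across genes, against 0.84 for the nearest other lineage). All 7 fibroblast markers were detected in it, as they were in muscle, endothelial, Schwann and immune cells, so detection alone does not name it. The markers summed to 6148 CPM, below the 19916.5 CPM of all *SM22-SmoM2* fibroblasts. *SM22-SmoM2* Schwann, immune, muscle and endothelial cells had 4426, 4194, 3920 and 810 CPM. *Pdgfra* had 134 CPM against 100.3 in the other fibroblasts. *Lox*, *Dpt*, *Lum*, *Dcn*, *Col3a1* and *Postn* were all lower, with *Dcn* at 719 against 3085 CPM. Of 6 muscle markers 5 were detected, at a summed 289.8 CPM against 59.1 in all *SM22-SmoM2* fibroblasts, led by *Rgs5* (226 CPM against 27.2 in the other fibroblasts and 7769.9 in muscle cells), with *Myh11* at 0. Summed endothelial, Schwann and immune markers (4, 2 and 4 of 6 detected) were at 50.2, 50.2 and 30.7 CPM, against 63.1, 31.8 and 23.4 CPM. The part of these in the results was not tested. *Ibsp* and *Alpl* depended on this cluster, and their ratios between libraries and by *Rspo3* are given with and without it. Their other values keep it. Sex could be called in most fibroblasts, and male cells were 74.7% of those called in control and 94.4% in *SM22-SmoM2*. As a check on the transgene, fibroblast levels of the Hedgehog targets were 12.2 (control) and 147 CPM (*SM22-SmoM2*) for *Ptch1*, and 6.03 and 33.2 CPM for *Gli1*.

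The libraries differed in which kinds of fibroblast they held. Fibroblasts were therefore clustered again, and 3 sub-clusters (2, 9 and 11) had 50 or more cells from each library; they are called the shared sub-clusters. This restriction was added with the results in view. Where it or the unnamed cluster moved a ratio by more than 1.5 times, the value stands beside that ratio. In sub-cluster 2, *Ptch1* was at 16.4 CPM in *SM22-SmoM2* and 7.93 CPM in control cells. In sub-cluster 9 it was at 13.6 and 14.3 CPM, and in sub-cluster 11 at 178 and 1.89 CPM. Over all *SM22-SmoM2* fibroblasts it was at 147 CPM. Ratios over the shared sub-clusters therefore rest largely on *SM22-SmoM2* cells with little of this Hedgehog target.

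Ranges in parentheses are exact 95% intervals that cover counting error only. They treat UMIs as independent, which they were not where a few cells held most UMIs of a gene, and they leave out differences between mice.

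All 7 genes had 1 row in the files and are protein-coding genes of GRCm38. *Ibsp* (ENSMUSG00000029306) lies at chr5:104299171-104311469, *Alpl* (ENSMUSG00000028766) at chr4:137741733-137796384 and *Enpp1* (ENSMUSG00000037370) at chr10:24637914-24712159. *Pth1r* (ENSMUSG00000032492) lies at chr9:110722085-110747145, *Tnmd* (ENSMUSG00000031250) at chrX:133850980-133865577, *Scx* (ENSMUSG00000034161) at chr15:76457452-76459458 and *Mgp* (ENSMUSG00000030218) at chr6:136872435-136875823. *Myl3* overlaps *Pth1r* on the opposite strand and *Bop1* overlaps *Scx* likewise. The strand counted is not given in the sources used here, so their reads may not be separable. *Bop1* itself had 293 UMIs in control and 194 UMIs in *SM22-SmoM2* fibroblasts, and *Myl3* 27 and 35 UMIs.

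Promoters from RefSeq (GRCm38.p6, 250 bases before to 50 after a start site) were found for 5 of the 7 genes, and the sequence before the start is shown for the member with the highest ratio between libraries and for the one in which a RUNX motif was found. Capitals mark the motif, and the strand is that of the gene. The RefSeq start of *Ibsp* lies inside the GENCODE interval given above, so the last part of its stretch is within the gene as annotated there.
*Ibsp*, chr5:104299037-104299286, plus strand: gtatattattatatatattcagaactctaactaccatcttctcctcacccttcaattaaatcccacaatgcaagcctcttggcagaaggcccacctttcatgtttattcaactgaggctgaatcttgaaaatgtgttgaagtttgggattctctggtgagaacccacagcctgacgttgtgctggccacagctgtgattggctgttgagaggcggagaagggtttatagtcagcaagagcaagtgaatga
*Enpp1*, chr10:24712160-24712409, minus strand: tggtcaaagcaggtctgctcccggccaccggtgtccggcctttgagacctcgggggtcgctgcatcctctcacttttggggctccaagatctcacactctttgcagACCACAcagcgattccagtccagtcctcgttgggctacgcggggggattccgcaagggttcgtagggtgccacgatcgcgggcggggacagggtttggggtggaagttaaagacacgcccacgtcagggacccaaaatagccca

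The windows were searched on both strands for 3 motifs, the GLI motif GACCACCCA, the RUNX motif TGTGGT and the E-box CATCTG, whose letters do not overlap one another. The GLI motif was in 0.253% of 32851 mouse promoters and in none of the windows of these genes. The RUNX motif, in 16.8% of promoters, was found once, 144 bases before the *Enpp1* start on the opposite strand. The E-box, in 17.2% of promoters, was found once, 23 bases after the second *Alpl* start. These are matches of letters in short windows and say nothing of binding.

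The first comparison asked how the 7 genes differed between the fibroblasts of the *SM22-SmoM2* and control libraries. *Ibsp*, *Alpl*, *Pth1r* and *Tnmd* were higher in the *SM22-SmoM2* library by at least 2-fold, and *Scx* and *Enpp1* were lower by at least 2-fold. *Mgp* was lower by less than 2-fold. Of the 13020 genes with at least 20 UMIs, 6.45% were at least 2-fold higher and 6.15% at least 2-fold lower, and the median log2 ratio was −0.06. The median over the 7 genes was 1.04, which nothing can be read from, since the genes were chosen on this contrast.

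**Figure D1:**
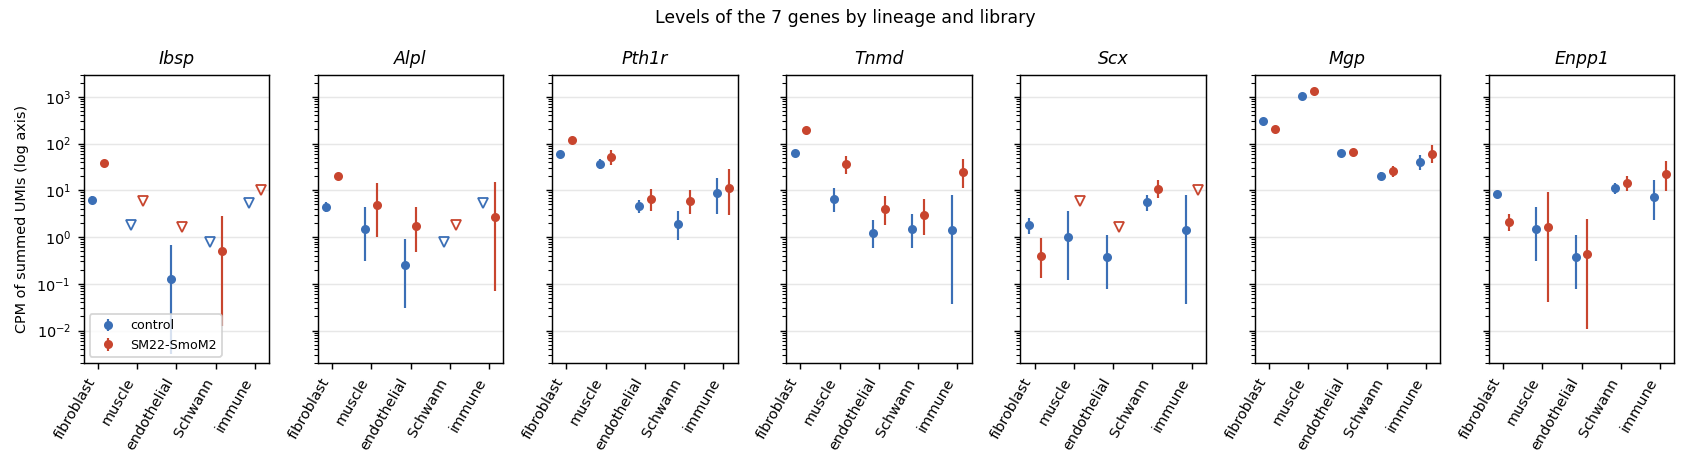
CPM of summed UMIs on a log axis for each of the 7 genes in 5 lineages, control in blue and *SM22-SmoM2* in red, 1 library each; bars are exact 95% Poisson intervals, and open triangles mark the upper bound where a gene had 0 UMIs. *Ibsp*, *Alpl* and *Tnmd* had their highest levels in fibroblasts, at 38.9, 19.8 and 195 CPM in the *SM22-SmoM2* library, while *Mgp* had its highest in muscle cells, at 1024 and 1320 CPM.

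Across the lineages the genes had different orders of level, each read within 1 gene. *Pth1r* was highest in fibroblasts and next in muscle cells in both libraries, and its control levels of 4.58 CPM in endothelial, 8.57 CPM in immune and 1.90 CPM in Schwann cells followed, and the intervals of these 3 overlapped. *Mgp* was highest in muscle cells, then in fibroblasts, and had 64.3 CPM in endothelial, 39.98 CPM in immune and 20.1 CPM in Schwann cells of the control library, with no overlap of intervals between neighbours in that order. *Enpp1* in control had 11.0 CPM in Schwann cells, 8.23 CPM in fibroblasts and 7.14 CPM in immune cells, with overlapping intervals. *Scx* had 5.49 CPM in control Schwann cells and 1.77 CPM in control fibroblasts, and its intervals did not overlap there. Keratinocytes were 15 control cells and 1 *SM22-SmoM2* cell and are not compared.

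*Ibsp* had 88 UMIs in control fibroblasts (6.24 CPM, 5.01–7.69) and 485 UMIs in *SM22-SmoM2* fibroblasts (38.9 CPM, 35.5–42.5), a log2 ratio of 2.64 (2.31–2.98). These UMIs came from very few cells. In the *SM22-SmoM2* library 43 of 1098 fibroblasts held them, 1 cell alone had 173 (35.7%), and 3 cells made up at least 50%. In the control library 16 of 1089 fibroblasts held them, and the highest cell had 23. The ratio therefore rested on a handful of cells, mostly in the unnamed cluster, where 14 of 53 cells held 332 of the 485 UMIs (68.5%). Without that cluster the log2 ratio was 1.02. In the shared sub-clusters it was −1.33 (18 against 88 UMIs), so the direction turned. Among male cells alone it was 5.04 (428 against 12 UMIs), since 74 of the 88 control UMIs lay in female cells. With every cell thinned to 3000 UMIs, *Ibsp* was detected in 0.826% of control (0.379–1.56) and 2.04% of *SM22-SmoM2* fibroblasts (1.28–3.07). It was detected in 0 of 679 control and 1 of 269 *SM22-SmoM2* Schwann cells, which had medians of 5963 and 5545.5 UMIs. Nearly all *Ibsp* UMIs lay in fibroblasts, 88 of 89 in control cells and 485 of 486 in *SM22-SmoM2* cells.

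*Alpl* had 62 UMIs in control fibroblasts (4.40 CPM, 3.37–5.64) and 247 UMIs in *SM22-SmoM2* fibroblasts (19.8 CPM, 17.4–22.4), a log2 ratio of 2.17 (1.76–2.60). Its UMIs were spread more widely than those of *Ibsp*. They came from 38 control and 139 *SM22-SmoM2* fibroblasts, with at most 4 and 11 UMIs in a cell. At 3000 UMIs it was detected in 1.01% of control (0.505–1.80) and 5.93% of *SM22-SmoM2* fibroblasts (4.60–7.51), and in 0 of 679 and 0 of 269 Schwann cells. The unnamed cluster held 118 of the 247 UMIs (47.8%), in 44 of its 53 cells, and the log2 ratio without it was 1.27. In the shared sub-clusters the ratio was −0.09 (−1.13 to 0.88), with 14 and 29 UMIs, an interval that held 0 and left out the 2.17 over all fibroblasts. Of the control UMIs, 32 of 62 (51.6%) came from sub-cluster 12, which held 58 control and 3 *SM22-SmoM2* cells and was led by *Trf*, *Thbs4* and *Cst6*.

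*Pth1r* was broadly detected in both libraries. It had 832 UMIs in 446 control fibroblasts (59.0 CPM, 55.1–63.2) and 1519 UMIs in 586 *SM22-SmoM2* fibroblasts (122 CPM, 116–128), a log2 ratio of 1.04 (0.92–1.17). At 3000 UMIs the shares of fibroblasts were 14.9% (12.8–17.1) and 27.0% (24.3–29.7), against 0.295% and 1.12% of Schwann cells. No cell held more than 1.45% of its UMIs. Over the shared sub-clusters alone the log2 ratio was 0.55 (0.38–0.72). Muscle cells also carried *Pth1r*, at 36.4 and 52.1 CPM, with a log2 ratio of 0.52 (−0.13 to 1.13). Its ligand gene *Pthlh* was at 39.7 CPM in fibroblasts of the control and at 28.8 CPM in those of the other library, a log2 ratio of −0.46 (−0.66 to −0.27), so that receptor and ligand transcripts differed in opposite directions.

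*Tnmd* had 885 UMIs in 173 control fibroblasts (62.8 CPM, 58.7–67.1) and 2439 UMIs in 513 *SM22-SmoM2* fibroblasts (195 CPM, 188–203), a log2 ratio of 1.64 (1.53–1.75). More cells carried it, 15.9% of control and 46.7% of *SM22-SmoM2* fibroblasts, but the highest single cell was a control cell, with 82 UMIs against 51. At 3000 UMIs it was detected in 98 of 1089 (7.37–10.9%) and 303 of 1079 fibroblasts (25.4–30.9%), against 0.147% and 1.12% of Schwann cells. Only 6 of the 2439 UMIs lay in the unnamed cluster. In the shared sub-clusters the log2 ratio was 0.20 (0.03–0.36). Within these the value depended on the sub-cluster, from −0.43 (−0.80 to −0.08) in sub-cluster 9 and −0.24 (−0.49 to 0.01) in sub-cluster 2 to 2.38 (1.90–2.89) in the cycling sub-cluster 11. In muscle cells *Tnmd* had 35.8 CPM against 6.48 CPM in control (2.47, 1.41–3.58), but its 22 UMIs came from 6 cells and the shares of positive cells at 3000 UMIs were 2.44% and 2.84%, so no order is read from them.

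*Scx*, the other tendon gene, was scarce and went the other way. It had 25 UMIs in 18 control fibroblasts (1.77 CPM, 1.15–2.62) and 5 UMIs in 5 *SM22-SmoM2* fibroblasts (0.401 CPM, 0.130–0.935), a log2 ratio of −2.15 (−3.89 to −0.73). Of the 25 control UMIs, 14 came from sub-cluster 0 (85 control cells, no *SM22-SmoM2* cell) and 9 from sub-cluster 13 (270 control cells, 3 *SM22-SmoM2* cells). The difference thus lay in kinds of fibroblast that 1 library all but lacked. Schwann cells, which were 23.8% of control and 16.4% of *SM22-SmoM2* cells, held 26 of 61 and 22 of 27 *Scx* UMIs in all. There the log2 ratio was 0.99 (0.10–1.86), the opposite direction.

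*Mgp* had 4264 UMIs in 465 control fibroblasts (302 CPM, 293–312) and 2549 UMIs in 456 *SM22-SmoM2* fibroblasts (204 CPM, 196–212), a log2 ratio of −0.57 (−0.64 to −0.50). At 3000 UMIs it was detected in 25.9% (23.3–28.6) and 25.8% (23.2–28.5) of fibroblasts, so the share of positive cells was about the same at that depth. At 1500 UMIs the share was lower in the *SM22-SmoM2* library, as given at the end. The upper end differed too in counts without thinning, with 113 control and 71 *SM22-SmoM2* fibroblasts at 10 or more UMIs and a highest cell of 211 against 58. Sub-cluster 7, with 47 control cells, no *SM22-SmoM2* cell and leading genes *Mmp3*, *C4b* and *Sfrp4*, held 1318 of the 4264 control UMIs (30.9%) at 3255 CPM (3082–3436). In the shared sub-clusters the log2 ratio was 0.17 (0.05–0.29), with the direction turned. Muscle cells were 0.37 higher (0.25–0.48) in the *SM22-SmoM2* library.

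*Enpp1* had 116 UMIs in 76 control fibroblasts (8.23 CPM, 6.80–9.87) and 26 UMIs in 22 *SM22-SmoM2* fibroblasts (2.08 CPM, 1.36–3.05), a log2 ratio of −1.98 (−2.66 to −1.36). Over all fibroblasts the pyrophosphate-making enzyme and *Alpl*, which removes pyrophosphate, therefore differed in opposite directions between the libraries. In the shared sub-clusters *Alpl* was at −0.09 and *Enpp1* at −0.51, both with intervals that held 0, so no opposite directions are read there. Of the control *Enpp1* UMIs, 62 of 116 (53.4%) lay in sub-cluster 13, which held 270 control and 3 *SM22-SmoM2* cells. The shared sub-clusters, with 36 and 13 UMIs, gave a log2 ratio of −0.51 (−1.55 to 0.44), an interval that held 0 and left out −1.98. Male cells alone gave −2.75 (−3.68 to −1.92). Schwann cells had 11.0 and 14.4 CPM.

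The second comparison set *SM22-SmoM2* fibroblasts in which *Egfl6* was detected (310 cells, median 9760.5 UMIs) against the other 788 (median 11447.5). *Egfl6* itself was at 4.89 CPM in control fibroblasts and at 163 CPM here. The summed level of the fibroblast markers was lower where *Egfl6* was detected (12565 against 22627 CPM), and its part in the ratios was not tested. *Pth1r* was the 1 gene of the 7 with a ratio of at least 2-fold upward. *Enpp1* was the 1 downward, on 3 against 23 UMIs (−1.50, −3.88 to 0.23), with an interval that held 0. Among 11785 genes with at least 20 UMIs, 3.05% were at least 2-fold higher and 6.09% at least 2-fold lower, with a median of −0.04. *Scx* had 5 UMIs in these cells and was left out.

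*Pth1r* had 202 CPM (187–218) with *Egfl6* and 92.1 CPM (86.0–98.6) without it, a log2 ratio of 1.13 (0.98–1.28). At 3000 UMIs it was detected in 38.8% of the *Egfl6*-positive and 22.3% of the other cells. *Alpl* followed at 30.3 and 15.9 CPM (0.93, 0.55–1.31) and *Tnmd* at 237 and 180.3 CPM (0.39, 0.27–0.51). The small *Tnmd* ratio was sensitive to a few cells, at 0.18 without the 5 cells of each group with the most UMIs. *Mgp* was lower, at 124 against 234 CPM (−0.91, −1.07 to −0.76), and was detected in 12.1% against 31.2% of cells at 3000 UMIs. Its ratio was −1.51 with *Egfl6* called at 3000 UMIs, −2.55 with at least 2 *Egfl6* UMIs asked for and −1.53 without the 5 cells of each group with the most UMIs. *Ibsp* had 43.7 and 37.1 CPM (0.24, −0.05 to 0.52), from 12 of 310 and 31 of 788 cells (3.87% and 3.93%). Its ratio changed sign to −1.06 when *Egfl6* was called at 3000 UMIs, and no order can be read from it.

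The third comparison set 130 *SM22-SmoM2* fibroblasts with *Rspo3* (median 12461.5 UMIs) against the other 968 (median 10711). Here *Ibsp* and *Alpl* were the 2 genes at least 2-fold higher, and none of the 7 was at least 2-fold lower. The background was 3.31% of 11785 genes higher and 3.04% lower, with a median of 0.07. *Ibsp* had 386 UMIs in the *Rspo3*-positive cells (239 CPM, 216–265) and 99 in the others (9.11 CPM, 7.40–11.1), a log2 ratio of 4.72 (4.39–5.05). This ranked 6 among the 11785 genes, which nothing can be read from, since the genes were chosen on this split. A single cell held 173 of the 386 UMIs. *Ibsp* was found in 16 of 130 cells (12.3%, 7.20–19.2) against 27 of 968 (2.79%, 1.85–4.03), so most *Rspo3*-positive cells had no *Ibsp* UMI. *Alpl* had 67.6 CPM (55.5–81.5) against 12.7 CPM, a log2 ratio of 2.41 (2.04–2.79), and was found in 42 of 130 against 97 of 968 cells. With *Rspo3* called at 3000 UMIs the ratios were 2.93 for *Ibsp* and 3.46 for *Alpl*, with at least 2 *Rspo3* UMIs 5.985 and 3.57, and among male cells that of *Ibsp* was 5.86.

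Much of this was the unnamed cluster, which held 207 of the 330 *Rspo3* UMIs. Without it the log2 ratio was 2.84 for *Ibsp* and 0.48 for *Alpl*. *Pth1r* was slightly higher with *Rspo3* (0.36, 0.16–0.56), and *Tnmd* was lower (130.2 against 205 CPM, −0.66, −0.87 to −0.45). *Tnmd* stood at −0.42 without the unnamed cluster and at −1.44 when *Rspo3* was called at 3000 UMIs. *Mgp* had 241 and 199 CPM (0.28, 0.12–0.44), but its direction turned to −0.25 without the 5 cells with the most UMIs of each group and to −0.18 when *Rspo3* was called at 3000 UMIs. *Enpp1* had 2 and 24 UMIs.

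**Figure D2:**
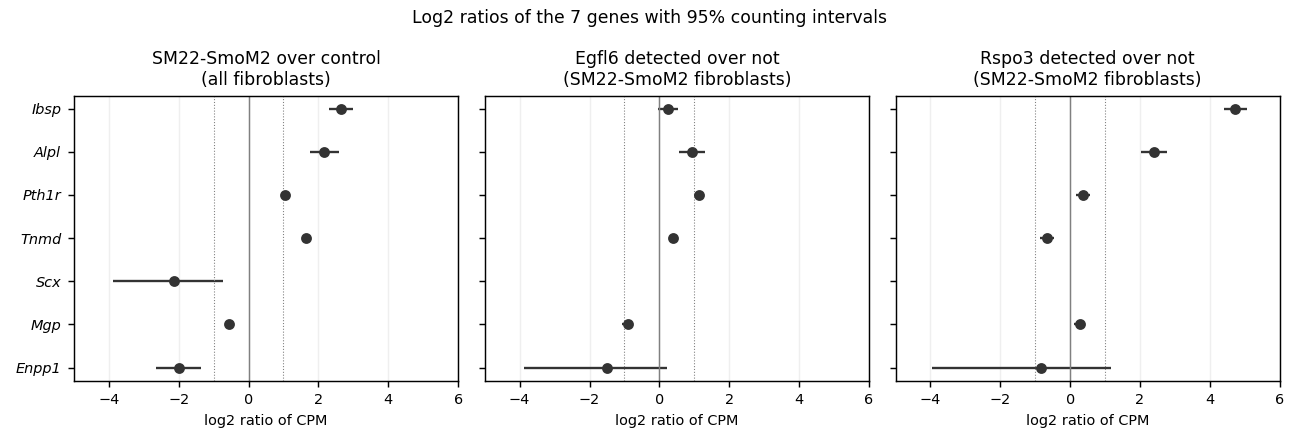
Log2 ratios of CPM for the 7 genes in 3 comparisons, each point 1 ratio of summed UMIs with its exact 95% counting interval; dotted lines mark 2-fold and *Scx* is left out of the splits. *Ibsp* sat at 2.64 between libraries, 0.24 by *Egfl6* and 4.72 by *Rspo3*, while *Pth1r* was above 1 between libraries and by *Egfl6* but at 0.36 by *Rspo3*.

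Cells were then grouped by both splitting genes. Both were detected in 22 *SM22-SmoM2* fibroblasts, *Egfl6* alone in 288, *Rspo3* alone in 108 and neither in 680, so that *Egfl6* was in 16.9% of the cells with *Rspo3* and 29.8% of those without. In the control library 38 cells had *Egfl6*, 51 had *Rspo3* and 0 of 1089 had both. *Ibsp* had 9.08 CPM (6.04–13.1) in cells with *Egfl6* alone and 9.12 CPM (7.12–11.5) in cells with neither, a log2 ratio of −0.01 (−0.69 to 0.64). It had 200.3 CPM (177–226) with *Rspo3* alone and 426 CPM (353–510) with both, on 10 and 6 positive cells. The 1 cell with 173 *Ibsp* UMIs was among those with *Rspo3* alone, which held 267 *Ibsp* UMIs in all. No order of these 2 groups is therefore read. *Alpl* had 9.51 CPM with neither, 20.8 CPM with *Egfl6* alone, 53.3 CPM with *Rspo3* alone and 136 CPM with both, and the intervals of neighbouring groups in this order did not overlap. The unnamed cluster, with 118 of the 247 *Alpl* and 207 of the 330 *Rspo3* UMIs, was kept in these groups. The *Alpl* order without it is not given. For *Pth1r* the order differed, with 82.9 CPM (76.6–89.5) with neither, 146 CPM (126–168) with *Rspo3* alone and 205 CPM (189–221) with *Egfl6* alone, and the 172 CPM of cells with both (127–228) overlapped each of the last 2. *Tnmd* was highest with *Egfl6* alone, at 243 CPM (226–261), against 190.0 CPM with neither and 124 CPM with *Rspo3* alone. *Mgp* was lowest with *Egfl6* alone (96.7 CPM, 86.0–108), with 202 CPM for *Rspo3* alone and 239 CPM with neither. The 22 cells with both had 429.8 CPM (356–514), on 120 UMIs. The cells that held these UMIs were not counted, so no order is read for that group.

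The libraries were also compared over the cells with neither splitting gene, 680 *SM22-SmoM2* and 1000 control fibroblasts. *Tnmd* kept its ratio there, at 1.67 (1.54–1.79), and *Scx*, on 3 against 22 UMIs, was at −2.15 (−4.53 to −0.42). *Alpl* was at 1.05 (0.54–1.57), *Ibsp* at 0.57 (0.09–1.05) and *Pth1r* at 0.49 (0.34–0.64), each below its ratio over all fibroblasts. *Mgp* was at −0.26 (−0.34 to −0.18) and *Enpp1* at −1.60 (−2.33 to −0.93).

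Detection of 1 UMI depends on depth, so cells were also grouped by the number of *Egfl6* or *Rspo3* UMIs after thinning to 3000 UMIs. *Pth1r* had 95.8, 201, 232 and 306 CPM in cells with 0, 1, 2 to 3 and 4 or more *Egfl6* UMIs. *Mgp* went down over the same groups, with 232, 175, 36.1 and 13.5 CPM. *Tnmd* had its highest level in the group with 1 *Egfl6* UMI, at 381 CPM (340–425), and 127 CPM (102–157) in the group with 4 or more. It was thus not a level that went up with *Egfl6* throughout. By *Rspo3*, *Ibsp* had 29.9, 84.5 and 436 CPM and *Alpl* 13.3, 40.7 and 299 CPM in cells with 0, 1 and 2 or more UMIs. *Tnmd* had 201, 106 and 27.2 CPM over these groups. The last 2 groups by *Rspo3* held 30 and 29 cells, and the *Ibsp* UMIs in them came from 2 and 7 cells. The 1 cell with 173 *Ibsp* UMIs fell in the group with 0 *Rspo3* UMIs after thinning, and the 29.9 CPM there rests in large part on it. The unnamed cluster was kept here, so the levels by *Rspo3* need not hold in the other fibroblasts.

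**Figure D3:**
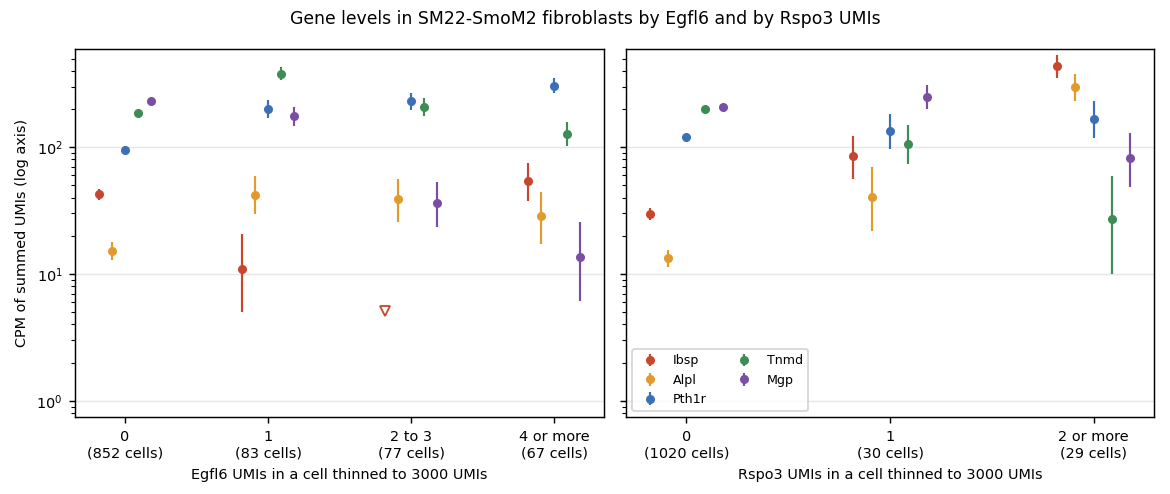
CPM of summed UMIs (log axis) of 5 genes in *SM22-SmoM2* fibroblasts grouped by *Egfl6* UMIs (left) or *Rspo3* UMIs (right) after thinning to 3000 UMIs; bars are exact 95% Poisson intervals and the open triangle is the upper bound for 0 UMIs. *Pth1r* was at 306 CPM and *Mgp* at 13.5 CPM in the 67 cells with 4 or more *Egfl6* UMIs, and *Ibsp* and *Alpl* were at 436 and 299 CPM in the 29 cells with 2 or more *Rspo3* UMIs.

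Fibroblasts were clustered again without the 7 genes, *Egfl6* and *Rspo3* among the clustering genes, and 13 sub-clusters were compared. The 7 genes marked different ones. Sub-cluster 8, with 45 *SM22-SmoM2* cells and no control cell, had 1028 CPM of *Ibsp* (917–1148), 351 CPM of *Alpl* (288–425) and 654 CPM of *Rspo3*, but 9.85 CPM of *Tnmd* (2.03–28.8). Its leading genes were *a*, *Cd24a*, *Ibsp* and *Rspo3*, and its median depth was 4425 UMIs. Its 313 *Ibsp* UMIs came from 11 of the 45 cells, 173 of them from 1 cell. The unnamed cluster held 332 of the 485 *Ibsp* UMIs in *SM22-SmoM2* fibroblasts, so it and sub-cluster 8 overlapped and are not separate sources of these levels. Sub-cluster 14, with 137 *SM22-SmoM2* and 8 control cells, had 482 CPM of *Tnmd* (445–521), 267 CPM of *Pth1r* (240–297) and 408 CPM of *Egfl6*. Its *Ibsp* level was 2.30 CPM (3 UMIs) and its *Mgp* level 22.3 CPM.

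The other *Egfl6*-rich sub-cluster, number 6 with 152 *SM22-SmoM2* and 2 control cells, differed from number 14. It had 765 CPM of *Egfl6* and 220.5 CPM of *Pth1r*, but 133 CPM of *Tnmd* and 53.8 CPM of *Ibsp*. Within the *SM22-SmoM2* library the log2 ratio of sub-cluster 14 to 6 was 1.86 (1.63–2.10) for *Tnmd*, −4.55 (−6.85 to −2.95) for *Ibsp* and 0.28 (0.06–0.50) for *Pth1r*. The *Ibsp* ratio was on 3 against 81 UMIs. The number of cells that held the 81 UMIs is not given, and a few cells may account for them. *Alpl*, with 24 and 40 UMIs, had a ratio of −0.53 (−1.32 to 0.24). *Tnmd* was also present where *Egfl6* was low. The *SM22-SmoM2* cells of sub-cluster 4, led by *Penk*, *Mest* and *Cldn1*, had 271 CPM of *Tnmd* (251–293), 332 CPM of *Mgp* and 10.6 CPM of *Egfl6*. Of the *Tnmd* UMIs in *SM22-SmoM2* fibroblasts, 26.1% lay in sub-cluster 4 and 25.7% in sub-cluster 14.

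In the control library most UMIs of *Ibsp* and *Tnmd* sat elsewhere. Sub-cluster 2 (282 control and 119 *SM22-SmoM2* cells, led by *Crabp1*, *Igfbp2* and *Prss35*) held 79 of the 88 control *Ibsp* UMIs, in 14 cells, and 519 of the 885 *Tnmd* UMIs. Between the libraries within it, the log2 ratio was −1.34 (−2.31 to −0.48) for *Ibsp* and 0.34 (0.09–0.59) for *Pth1r*. *Mgp* was low there (12.7 CPM in control, 6.81 CPM in *SM22-SmoM2*) and high in sub-cluster 9 (497 and 579.9 CPM). In the cycling sub-cluster 11, *Pth1r* was at 70.7 CPM in control cells and 224 CPM in the others (1.66, 1.28–2.06). Where nearly all cells of a sub-cluster came from 1 library, that kind of fibroblast and the library cannot be told apart.

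**Figure D4:**
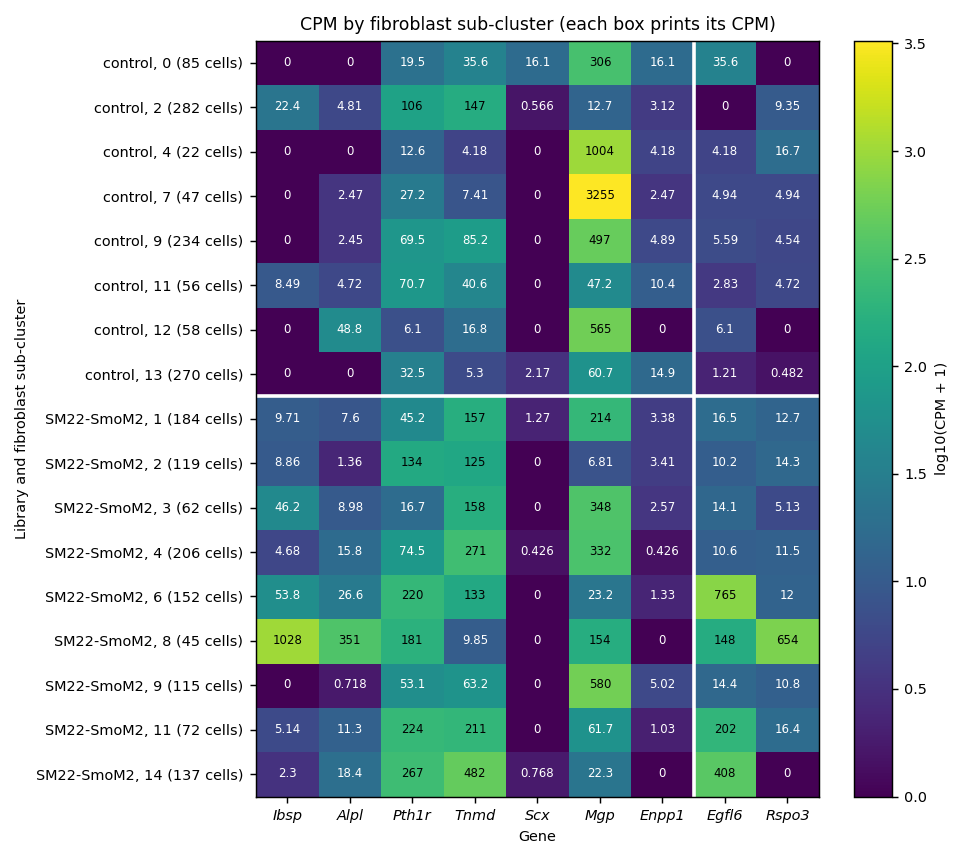
CPM of the 7 genes and of *Egfl6* and *Rspo3* in fibroblast sub-clusters with at least 20 cells of a library, control above and *SM22-SmoM2* below; colour is log10(CPM + 1) and each box prints its CPM. *Ibsp* and *Alpl* stood at 1028 and 351 CPM in *SM22-SmoM2* sub-cluster 8, *Tnmd* and *Pth1r* at 482 and 267 CPM in sub-cluster 14, and *Mgp* at 3255 CPM in control sub-cluster 7.

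Detection in the same cell was counted at 3000 UMIs per cell, where the depth is equal. Among *SM22-SmoM2* fibroblasts with *Alpl*, 37.5% had *Rspo3* (24 of 64), against 3.45% of those without it (35 of 1015). For *Egfl6* the shares were 34.4% and 20.2%. *Pth1r* was found in 41.4% of cells with *Egfl6* (94 of 227) and in 23.1% of the rest, and *Mgp* in 7.93% (18 of 227) and 30.5%. *Pth1r* and *Tnmd* were found together in 96 cells, or 33.0% of the cells with *Pth1r*, and *Tnmd* was in 26.3% of those without. *Tnmd* was in 15.6% of cells with *Alpl* (10 of 64, 7.76–26.9%) and 28.9% of cells without (26.1–31.8%). The 2 intervals overlapped, so no order is read from these shares. The unnamed cluster was kept in these counts, and shares without it are not given.

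Genes with the most similar pattern were sought over the 25 groups of at least 20 cells, lineages and fibroblast sub-clusters of each library, by Pearson correlation of log2(CPM + 10). The groups share 2 libraries and differ in depth, and the values are a description. *Ibsp* was most like *Gm28050* (r = 0.91), *Notum* (0.89) and *Smoc1* (0.89), and *Alpl* like *Mycl* (0.89), *Scube3* (0.89) and *Smoc1* (0.88). *Ibsp* and *Alpl* had r = 0.82 with each other and 0.87 and 0.77 with *Rspo3*. Sub-cluster 8, where these genes were high, was among the groups. *Pth1r* was most like *Adcy2* (0.86), *Idh2* (0.86) and *En1* (0.85), and *Tnmd* like *Gm11627* (0.82), *Bcl11b* (0.81) and *Sertad4* (0.79). *Pth1r* and *Tnmd* had r = 0.73 with each other and 0.69 and 0.53 with *Egfl6*, while *Tnmd* and *Rspo3* had 0.07. For the genes lower in the *SM22-SmoM2* library, *Scx* was most like *Arhgap22* (0.87), *E130114P18Rik* (0.84) and the tendon transcription factor gene *Mkx* (0.82), *Mgp* like *Cygb* (0.94), *Serping1* (0.91) and *Gm11744* (0.83), and *Enpp1* like *Lamp1* (0.82), *Rab32* (0.79) and *Cela1* (0.77). *Scx* and *Enpp1* had r = 0.59 with each other.

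Other genes of the same tissues and pathways were read in 5 lists, which do not hold the 7. Their counts are to be read against the shares of all genes given above, 6.45% higher and 6.15% lower between libraries, 3.05% and 6.09% by *Egfl6* and 3.31% and 3.04% by *Rspo3*. Listed genes were compared between libraries over all fibroblasts only. Values for the shared sub-clusters are not given, so the kinds of fibroblast in each library enter these ratios. Of 25 bone genes, 15 had at least 20 UMIs in fibroblasts, and 2 were at least 2-fold higher and 2 at least 2-fold lower in the *SM22-SmoM2* library, with a median log2 ratio of −0.41. The higher ones were *Sp7*, the osteoblast transcription factor osterix (65 against 2 UMIs, 5.20, 3.29–8.27), and *Sost*, the osteocyte inhibitor of Wnt signaling (116 UMIs against 0, a log2 ratio of 5.45 with 3 UMIs in place of 0, with a counting interval that begins at 5.13). The lower ones were *Spp1*, osteopontin (18.8 against 71.1 CPM, −1.92, −2.13 to −1.72), and *Tnfrsf11b*, the osteoclast inhibitor osteoprotegerin (6.73 against 34.4 CPM, −2.35, −2.71 to −2.02). *Runx2*, which acts before *Sp7*, was 0.52 higher (0.32–0.71), and *Bglap*, osteocalcin of mature osteoblasts, had 5 and 2 UMIs. The list thus had no common direction, and the collagen genes *Col1a1* and *Col1a2* stood at −0.57 and −0.43.

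*Sost* was also divided by the splitting genes. Of its UMIs in *SM22-SmoM2* fibroblasts, 110 lay in cells with *Egfl6* and 6 in the rest (5.64, 4.47–7.11), and 1 lay in cells with *Rspo3* and 115 in the rest (−4.09, −9.41 to −1.59). *Ibsp* and *Sost*, both higher in the *SM22-SmoM2* library, therefore went with different splitting genes. *Sp7* had 24 UMIs with and 41 without *Egfl6*, and 6 with and 59 without *Rspo3*, with intervals that held 0 in both. By *Egfl6*, the osteoclast-inducing cytokine gene *Tnfsf11* had 4 UMIs with and 30 without it (−1.47, −3.43 to 0.04). The median of the bone list was −0.33 by *Egfl6* and 0.03 by *Rspo3*, and none of its genes was at least 2-fold higher with *Rspo3*.

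Of 15 tendon genes, 14 had enough UMIs, and 1 was at least 2-fold higher and 3 at least 2-fold lower in the *SM22-SmoM2* library, with a median of −0.59. *Thbs4*, a matrix protein of tendon (−3.14, −3.36 to −2.92), *Tppp3*, a marker of the tendon sheath (−2.23, −2.30 to −2.15), and *Mkx* (25 against 117 UMIs, −2.05, −2.74 to −1.42) were lower, and the fibrillar collagen gene *Col11a1* was higher (69.4 against 24.5 CPM). *Tnmd* thus stood with 1 listed gene, and *Scx* with 3. *Thbs4* was among the leading genes of sub-clusters 0 and 12, which held 85 and 58 control but 0 and 3 *SM22-SmoM2* cells. By *Egfl6*, *Col11a1* was again higher (1.25, 1.05–1.44), and *Kera*, *Col12a1*, *Cilp* and *Thbs2* were lower, from −1.02 for *Col12a1* to −1.80 for *Cilp*, with a median of −0.90 over 13 genes. By *Rspo3*, 0 of 13 were past 2-fold in either direction, with a median of 0.20.

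In the list of mineral inhibitors and pyrophosphate or phosphate handling, 9 of 11 genes in the files had enough UMIs, and 3 were at least 2-fold lower and none 2-fold higher (median −0.50). Besides *Spp1*, which is in this list too, these were *Enpp3* (−1.31, −1.90 to −0.75) and *Entpd1* (−1.26, −1.51 to −1.01), both ecto-enzymes that cleave nucleotides like *Enpp1*. The pyrophosphate transporter gene *Ank* was at −0.73 (−1.06 to −0.40), and the phosphate transporter gene *Slc20a1* at 0.98 (0.84–1.13). By *Egfl6*, *Nt5e*, which makes adenosine and phosphate from AMP, was 2.01 higher (1.32–2.72), with a median of −0.30 over 9 genes, and by *Rspo3* none of the 9 was past 2-fold (median −0.07). Of 8 genes of parathyroid hormone signaling, 5 had enough UMIs and none was past 2-fold in any of the 3 comparisons, with medians of −0.32, 0.06 and 0.24. *Pth* had 0 UMIs in the fibroblasts of both libraries.

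Of 17 cartilage genes in the files, 7 had enough UMIs between the libraries, with 0 at least 2-fold higher and 2 lower (median 0.31), *Prg4*, lubricin (−2.80, −3.75 to −1.96), and *Sox5* (−1.53, −2.47 to −0.67). *Sox9* was at 0.25 (0.04–0.45), *Col2a1* had 35 and 27 UMIs and *Acan* 11 and 2 UMIs. By *Egfl6*, 3 of 4 genes were at least 2-fold lower, *Sox9* (−1.15, −1.58 to −0.75), *Col2a1* (2 against 33 UMIs, −2.60, −5.71 to −0.64) and *Col9a2* (2 against 21 UMIs, −1.95, −5.09 to 0.08), with a median of −1.55. By *Rspo3*, 0 of 4 were past 2-fold (median 0.26), with 3 UMIs in place of 0 for *Col2a1*. That gene had 0 UMIs with *Rspo3* and 35 without, and −0.79 after the replacement. Whether *Col2a1* was 2-fold lower with *Rspo3* therefore cannot be read from this count.

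The splits by *Egfl6* and *Rspo3* were also made in control fibroblasts, where they held 38 and 51 cells. By summed UMIs *Pth1r* was lower with *Egfl6* there (18.1 against 60.7 CPM, −1.75, −2.81 to −0.86), on 10 UMIs with *Egfl6*, against 1.13 in the *SM22-SmoM2* library. *Mgp* was higher (432 against 297 CPM, 0.54, 0.35–0.73), against −0.91 there. By summed UMIs *Tnmd* was higher with *Egfl6* in both (0.98, 0.60–1.34 in control, on 66 UMIs with *Egfl6*). In control fibroblasts thinned to equal depth, however, *Tnmd* was found in 0 of 11 cells with *Egfl6* and 98 of 1078 without (9.09%). The exact interval for the 11 cells, 0 to 28.5%, held 9.09%. No order of *Tnmd* by *Egfl6* is therefore read in control. *Ibsp* had 9 UMIs in 3 control cells with *Rspo3* and 79 UMIs in the others (1.15, −0.03 to 2.15), and *Alpl* 2 and 60 UMIs. Of the control *Egfl6* UMIs, 31 of 69 (44.9%) came from sub-cluster 0, which held no *SM22-SmoM2* cell, so these splits compare other kinds of fibroblast than in the *SM22-SmoM2* library.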

How the data were processed

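Tomato+ dermal cells of 1 control and 1 *SM22-SmoM2* library (10x Chromium v2) were processed by the authors with bcl2fastq and Cell Ranger against mm10, per the labels. What they deposited is raw UMI counts, one matrix per library. The Cell Ranger version, annotation and strand are not given in the sources used here. The barcodes given are those of the kit, not of the cells, so cells sharing a barcode across libraries could not be counted. Of the gene IDs, 27645 were found in GENCODE M21. Cells with under 200 genes (0) or over 10% mitochondrial UMIs (22 control, 10 *SM22-SmoM2*) were left out, and no doublets were removed, since no such step is described. Scrublet at an expected rate of 5% marked 5 and 11 cells, a share too low to show that the caller worked. A control cell had 3128 to 65167 UMIs, an *SM22-SmoM2* cell 2538 to 38806.

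For clustering, log-transformed counts per 10000 UMIs were reduced to 20 principal components of 2000 variable genes and clustered by k-means (K = 20, 50 starts, scikit-learn 1.9.0). The 7 genes, *Egfl6*, *Rspo3*, 7 Hedgehog genes and all listed genes (91 in all) were left out of the clustering genes. A cluster was named from marker lists with at least 3 markers at 10 CPM and 1.5 times the cluster median and a mean log2 excess of at least 1, a threshold set after the clusters had been seen. Fibroblasts were clustered again with K = 15, and 2 sub-clusters led by mural or immune markers (17 control, 2 *SM22-SmoM2* cells) were left out. Cells with Y-linked UMIs and no *Xist* were called male, and the reverse female.

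UMIs were summed per group and scaled to 1000000 (CPM). Intervals (scipy 1.17.1) are exact, Poisson for CPM, conditional binomial for ratios and Clopper-Pearson for shares. A count of 0 was replaced by 3 UMIs over the group, and ratios over all genes needed 20 UMIs. Detection was compared after thinning cells to 3000 UMIs, which left out 19 *SM22-SmoM2* fibroblasts and no control fibroblast. Each condition had 1 library, so no test was run. The ratio was tested on simulated data for fibroblasts of both libraries (13020 genes, 200 changed): 100% of changed genes had the right direction, and intervals held 97% of changed and 95.9% of unchanged values. This does not show that the intervals cover differences between mice or libraries, which they leave out.

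The 7 genes and the lists were chosen with earlier results of these data known. Named in the text are the 7 genes, *Egfl6*, *Rspo3*, *Gli1*, *Ptch1*, up to 4 listed genes per direction with 20 UMIs and a 2-fold ratio, the defining genes *Runx2*, *Sp7*, *Bglap*, *Mkx*, *Sox9*, *Col2a1*, *Acan* and *Pthlh*, and the 3 genes most alike to each of the 7, among genes with 50 UMIs. *Col1a1*, *Col1a2*, *Ank*, *Slc20a1* and *Pth* were named after their values had been seen. Promoters came from RefSeq. One listed gene is not reported here.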

Additional observations from a re-analysis of the deposited data

Results flagged for a closer look

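A pair of genes differed between the libraries in opposite directions in 2 lineages, each with a counting interval that left out 0. *Scx* had a log2 ratio of *SM22-SmoM2* to control of −2.15 in fibroblasts (5 against 25 UMIs) and 0.99 in Schwann cells (22 against 26 UMIs). *Mgp* had −0.57 in fibroblasts and 0.37 in muscle cells. The difference between lineages was not tested, since there was 1 library per condition. In the shared sub-clusters of fibroblasts (50 or more cells from each library) *Mgp* had 0.17, the direction seen in muscle cells.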

How the results depend on the processing

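No paired analysis was possible because each condition had 1 library. Of 210 alternative values of the 19 log2 ratios, 199 kept their sign and 51 moved past the counting interval while 5 turned a ratio whose interval left out 0; another 11 could not be given for want of UMIs. Other clustering (Leiden, K = 30, listed genes kept), Scrublet's doublets left out and a 5% mitochondrial limit moved none. For the library ratio, the shared sub-clusters gave *Ibsp* −1.33, *Alpl* −0.091 and *Mgp* 0.17, all with the sign turned (that of *Alpl* with an interval that held 0), and *Pth1r* 0.55, *Tnmd* 0.20 and *Enpp1* −0.51; these hold fewer cells and leave out kinds of fibroblast found in 1 library. Without the unnamed cluster *Ibsp* was 1.02 and *Alpl* 1.27. Male cells gave *Ibsp* 5.04, *Alpl* 2.65, *Mgp* −0.39 and *Enpp1* −2.75. Thinning to 1500 UMIs gave *Ibsp* 3.10, *Alpl* 2.63 and *Mgp* −1.01, the mean of per-cell CPM 3.20, 2.75 and −0.91, and leaving out the 5 cells with most UMIs *Ibsp* 3.08, *Tnmd* 1.95 and *Mgp* −0.47.

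By *Egfl6*, calling it at 3000 UMIs gave *Ibsp* −1.06, *Pth1r* 1.34 and *Mgp* −1.51, and asking for 2 UMIs *Ibsp* −0.96, *Pth1r* 1.37 and *Mgp* −2.55. Thinning gave *Alpl* 0.52 and *Mgp* −1.37, per-cell CPM *Ibsp* −0.33 and *Mgp* −1.35, male cells *Mgp* −0.66, and leaving out the 5 top cells *Ibsp* −0.12, *Tnmd* 0.18 and *Mgp* −1.53. By *Rspo3*, calling it at 3000 UMIs gave *Ibsp* 2.93, *Alpl* 3.46, *Tnmd* −1.44 and *Mgp* −0.18 (reversed), and 2 UMIs gave *Ibsp* 5.985, *Alpl* 3.57, *Pth1r* 0.61 and *Tnmd* −1.13. Thinning gave *Ibsp* 4.34, *Tnmd* −1.05 and *Mgp* 0.0079, per-cell CPM *Tnmd* −0.93 and *Mgp* 0.032, and male cells *Ibsp* 5.86. Leaving out the 5 top cells gave *Ibsp* 4.38, *Pth1r* 0.082, *Tnmd* −1.11 and *Mgp* −0.25 (reversed), and leaving out the unnamed cluster *Ibsp* 2.84, *Alpl* 0.48 and *Tnmd* −0.42. Where no construction of the setting shows it, the cause was not tested.

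Shares of positive fibroblasts depend on depth. Without thinning they were 3.49% (control) and 12.7% (*SM22-SmoM2*) for *Alpl*, 41.0% and 53.4% for *Pth1r*, 15.9% and 46.7% for *Tnmd*, 42.7% and 41.5% for *Mgp* and 6.98% and 2.004% for *Enpp1*, with 3.92% for *Ibsp* in *SM22-SmoM2* and 1.65% for *Scx* in control. At 1500 UMIs they were 8.36% and 16.5% for *Pth1r*, 5.05% and 17.2% for *Tnmd* and 20.02% and 15.8% for *Mgp*, with 3.55% for *Alpl* in *SM22-SmoM2*, and 0.275% for *Scx* and 1.10% for *Enpp1* in control.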
